A study of Mus musculus with 24 samples.

Results

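Clade A serpins of the mouse liver were followed across 24 RNA-seq libraries. The 10 genes (*Serpina1a*, *Serpina1b*, *Serpina1c*, *Serpina1d*, *Serpina1e*, *Serpina3k*, *Serpina3m*, *Serpina4-ps1*, *Serpina6* and *Serpina7*) were taken by symbol from 24411 counted genes, and reads were counted in all of the libraries. The set was chosen by family and by 1 measured value, the higher *Serpina7* level of HKO livers than of their controls, so values in that contrast are described here without a test. The study asked how hepatocyte ploidy shapes injury by acetaminophen (APAP), an analgesic that is toxic to the liver at high doses, by deleting *E2f7* and *E2f8*, cell cycle genes that promote hepatocyte polyploidy.

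All mice were male, 2.5 months old and fasted overnight. In the LKO cohort, of mixed and mostly FVB background, both alleles of *E2f7* and *E2f8* were floxed and the R26R-mTmG reporter was present. LKO mice also carried Alb-Cre, which is active in the liver throughout life, and control littermates lacked Cre. At 0 h, before any APAP, 4 control and 4 LKO mice gave 1 library each. At 5 times after 300 mg/kg APAP (12, 24, 48, 72 and 96 h), RNA of 3 mice was pooled into 1 library per genotype and time. In the HKO cohort, floxed mice received AAV8-TBG-Cre at 2 months of age (HKO, 3 mice) or AAV8-TBG-Null (AAV null controls, 3 mice), and only 0 h was sequenced. This cohort carried the R26R-mTmG reporter as well, and its background is not stated in the sources used here. The TBG promoter in both viruses takes its name from thyroxine-binding globulin, the protein that *Serpina7* encodes. The cohorts therefore differ in virus, breeding and age at deletion together.

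Reads on genes ranged from 12665686 to 19499897 per library. Levels are given in CPM, counts corrected for the size of each library, where a gene with no read could stand at up to 0.141 to 0.260 CPM (3 counts) by counting error alone. The 10 serpins held between 1.58% and 3.28% of the reads on genes. Control replicate 3 was the shallowest library and had 20.6% unmapped reads. Hepatocyte markers summed to 91854 to 131625 CPM in control mice at 0 h and 67280 to 103337 CPM in LKO mice. *Ass1*, a urea cycle gene on this list that is abundant in liver, had 0 to 4 counts in each of the 24 libraries. The annotation used for counting is not given in the sources used here, and its part in such low counts, of this or other genes, was not tested. *E2f8* reads cover the whole gene and do not check a deletion. Its level was 4.15 to 18.7 CPM in the 9 control libraries of the LKO cohort and 14.6 to 46.7 CPM in the 9 libraries labelled LKO. In the HKO cohort *E2f8* was at 30.7 to 83.9 CPM in HKO mice and 15.2 to 26.4 CPM in AAV null controls, so in both cohorts it was not lower in the deleted group. *E2f7* was at most 4.33 CPM in the 24 libraries.

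Serpins are secreted or intracellular proteins that mostly inhibit serine proteases. An exposed reactive centre loop is cut by the target protease, after which the serpin changes shape and traps it. Clade A is largely made by hepatocytes and released into plasma. Some members have no inhibitory role and carry hormones instead, namely corticosteroid-binding globulin (*Serpina6*) and thyroxine-binding globulin (*Serpina7*). Alpha-1-antitrypsin, an inhibitor of neutrophil elastase, comes from 1 gene in humans and from a family of near-identical copies in mice.

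On GRCm38.p6, RefSeq places 9 of the 10 genes on chromosome 12 and *Serpina7* on chromosome X. *Serpina6* lies at 103646630-103657218, *Serpina1b* at 103728156-103738189, *Serpina1d* at 103763587-103773633, *Serpina1a* at 103853295-103863619, *Serpina1c* at 103894926-103904950 and *Serpina1e* at 103946931-103956897, all on the minus strand. *Serpina4-ps1*, annotated as a transcribed pseudogene, lies at 104077959-104086920 on the plus strand. *Serpina3k*, whose product is also called contrapsin, lies at 104338486-104345739 and *Serpina3m*, a close relative, at 104387157-104394259, both on the plus strand. *Serpina7* lies at 139079249-139085236 on the minus strand of chromosome X. In GENCODE vM21 the *Serpina3m* model begins at the first base of *Serpina3k*, and the *Serpina1b* model runs across *Serpina1d*, so reads in the shared spans may be set aside as ambiguous.

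The coding sequences of the 5 *Serpina1* genes are shown where they differ most, to show how alike the copies are even there. Over 1242 coding bases the copies were 96.3% to 98.5% identical, with *Serpina1a* and *Serpina1c* the closest pair, and 86 positions varied. The densest 60 bases, which encode the reactive centre loop and begin at coding base 1102, held 18 of these positions. They are printed from GENCODE vM21 transcripts, 5′ to 3′, with the positions that vary among the copies in capitals.
Serpina1a: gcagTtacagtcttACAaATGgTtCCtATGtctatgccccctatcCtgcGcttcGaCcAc
Serpina1b: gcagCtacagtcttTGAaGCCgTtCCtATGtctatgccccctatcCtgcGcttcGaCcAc
Serpina1c: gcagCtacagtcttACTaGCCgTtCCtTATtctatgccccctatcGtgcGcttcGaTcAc
Serpina1d: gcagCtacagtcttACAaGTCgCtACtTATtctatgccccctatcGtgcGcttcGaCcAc
Serpina1e: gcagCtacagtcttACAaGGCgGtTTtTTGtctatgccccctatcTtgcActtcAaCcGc

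Elsewhere the copies share long runs, and only uniquely mapped reads were counted. Of all 100-base windows of the transcript, 33.0% were found in no other gene for *Serpina1c*, 50.1% for *Serpina1a*, 70.7% for *Serpina1d*, 73.6% for *Serpina1b* and 81.8% for *Serpina1e*. *Serpina1a* and *Serpina1c* had 703 windows in common. The share was 95.1% for *Serpina3k* and 93.9% for *Serpina3m*, and 100% for *Serpina4-ps1*, *Serpina6* and *Serpina7*. By these windows, levels of *Serpina1a* and *Serpina1c* are the least certain of the 10, and those of the last 3 genes do not depend on a copy. The windows and printed sequences are those of the reference. Differences from it in these mice, of mixed and mostly FVB background in the LKO cohort, were not tested.

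**Figure D1:**
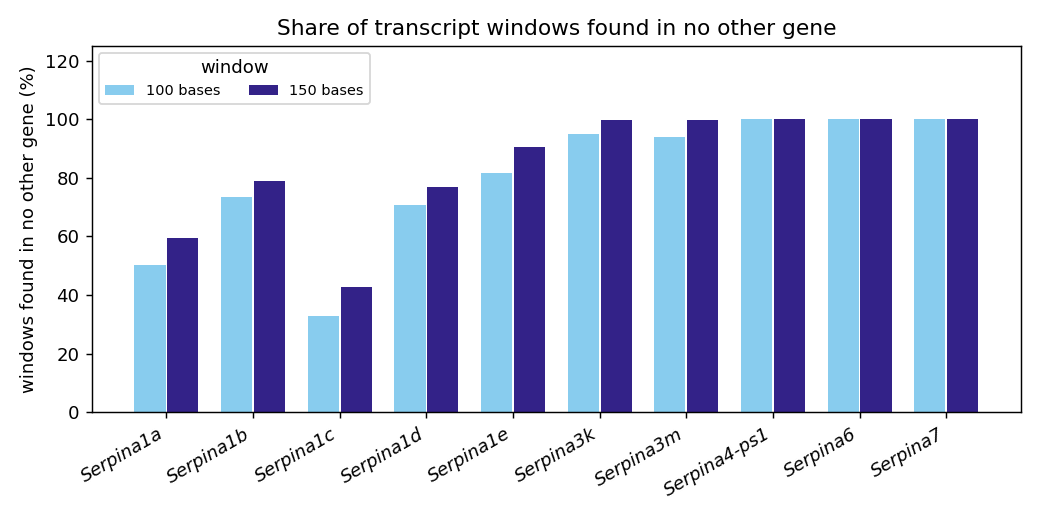
Percent of transcript windows of 100 or 150 bases (vertical axis) that occur in no other annotated gene, for each of the 10 genes. Serpina1c is lowest, at 33.0% and 42.7%, and Serpina4-ps1, Serpina6 and Serpina7 stand at 100%.

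RefSeq promoter sequence (250 bases before to 50 after the start, GRCm38.p6) was held for 6 of the 10 genes: the *Serpina1* copies and *Serpina7*. *Serpina3k*, *Serpina3m*, *Serpina4-ps1* and *Serpina6* had no entry. HNF1, a homeodomain factor of hepatocytes, binds sites that contain GTTAAT. These letters, searched on both strands, were in the promoters of all 6 genes and in 7.10% of 32851 promoters. The letters TTGCNNAA, a C/EBP-type pattern also searched on both strands, were in 5 of the 6 (not *Serpina1c*) and in 10.8% of all promoters. The 60 bases around the GTTAAT letters are printed below, 5′ to 3′ on the minus strand with those letters in capitals, to show how alike the copies are upstream and how *Serpina7* differs. The stretch was the same in *Serpina1a*, *Serpina1b* and *Serpina1c*, with 1 difference in *Serpina1e* and 4 in *Serpina1d*, so *Serpina1b* and *Serpina1c* are not repeated.
Serpina1a, chr12:103863625-103863684: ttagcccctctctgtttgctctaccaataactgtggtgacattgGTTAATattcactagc
Serpina1d, chr12:103773634-103773693: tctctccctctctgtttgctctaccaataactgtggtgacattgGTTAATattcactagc
Serpina1e, chr12:103956960-103957019: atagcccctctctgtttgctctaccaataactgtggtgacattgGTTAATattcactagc
Serpina7, chrX:139085278-139085337: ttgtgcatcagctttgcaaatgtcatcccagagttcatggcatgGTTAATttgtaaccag

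Baseline levels spanned several orders of magnitude. In control mice of the LKO cohort at 0 h, mean levels per kilobase of transcript were 6243 ± 2298 CPM for *Serpina3k*, 3453 ± 601 for *Serpina1b*, 3016 ± 326 for *Serpina1c*, 1937 ± 878 for *Serpina1a* and 959 ± 404 for *Serpina1d* (SD, n = 4). *Serpina4-ps1* stood at 420 ± 338, *Serpina3m* at 210 ± 50.6 and *Serpina6* at 203 ± 123 CPM per kilobase. *Serpina1e* was at 10.4 ± 4.21 and *Serpina7* at 5.08 ± 1.59 CPM per kilobase. In this order *Serpina1b* and *Serpina1c* lay within their spread of each other, as did *Serpina4-ps1*, *Serpina3m* and *Serpina6*. The order rests on uniquely mapped reads, and with 33.0% of its windows unique against 95.1% for *Serpina3k*, *Serpina1c* may stand higher than its value. All 5 antitrypsin copies together made up 10855 to 17558 CPM in these mice.

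The span over all 24 libraries separated 3 genes from the rest. *Serpina7* ran from 0.900 to 79.9 CPM, 88.8 times between the lowest and the highest library. The lowest was an AAV null control, whose values entered the choice of genes, so the first rank of *Serpina7* draws on them. Within the LKO cohort *Serpina7* ran from 2.27 to 79.9 CPM. *Serpina4-ps1* ran from 30.4 to 1100 CPM, 36.2 times, and *Serpina6* from 18.0 to 563 CPM, 31.3 times. The other 7 genes spanned 2.37 times (*Serpina1b*) to 6.23 times (*Serpina1d*). Control replicate 3 held the highest level of 6 genes, which were *Serpina1a*, *Serpina1b*, *Serpina1d*, *Serpina1e*, *Serpina3k* and *Serpina4-ps1*.

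**Figure D2:**
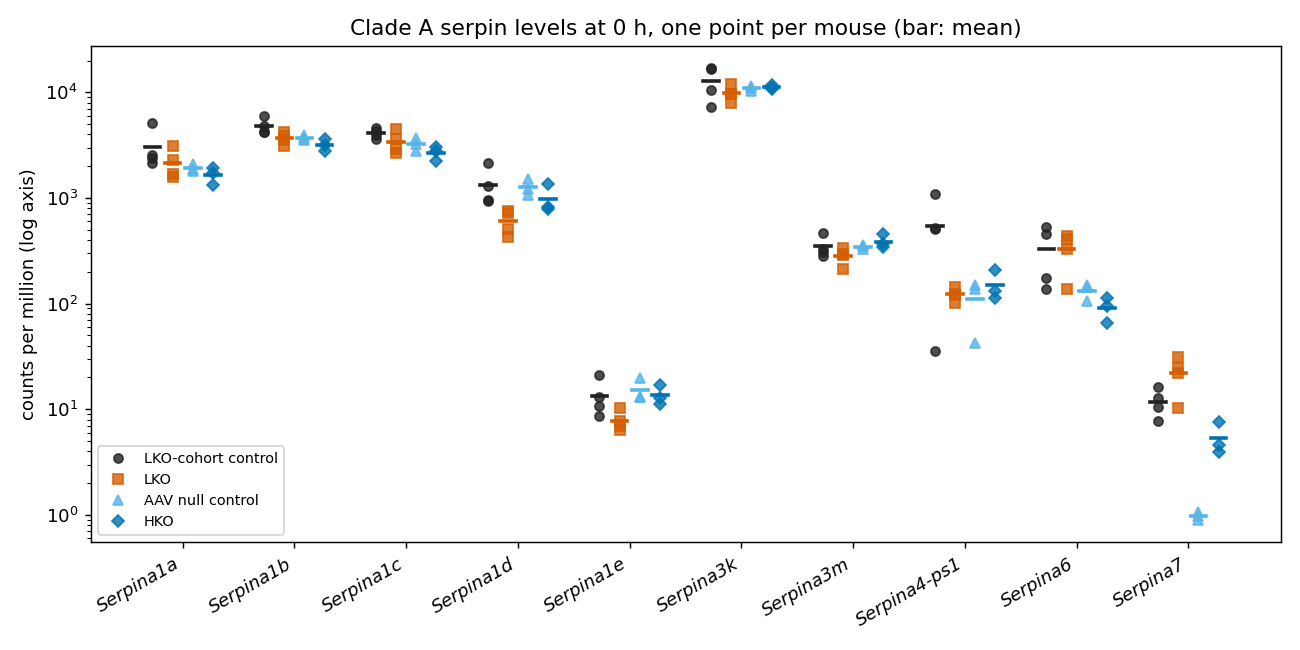
Levels of the 10 genes at 0 h in CPM (log axis), 1 point per mouse and a bar for the mean of each of the 4 groups. Serpina7 is lowest in the 3 AAV null controls (0.900 to 1.06 CPM), and Serpina4-ps1 of control mice spreads from 35.9 to 1100 CPM.

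The first comparison asked whether lifelong deletion alone altered these genes, in LKO against control mice at 0 h. None of the 10 genes was called (edgeR quasi-likelihood test, Benjamini-Hochberg adjusted p under 0.05 and at least 1.5-fold). Across all 12426 genes tested the percentage called was 0 too, with 2.83% at an unadjusted p under 0.05, and DESeq2 called 3 genes (0.0241%) but no serpin of these 10. An unadjusted p under 0.05 was found for 5 of the 10, with *Serpina1b*, *Serpina1d*, *Serpina1e* and *Serpina4-ps1* lower in LKO and *Serpina7* higher. The median log2 fold change of the 10 was -0.38, against -0.00 over all genes, -0.42 over 11 other clade A serpins, -0.34 over 14 hormone transport and response genes and -0.21 over 11 hepatocyte markers. Scaling by library size alone in place of TMM shifted the median gene by 0.13 on the log2 scale.

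*Serpina1d*, 1 of the antitrypsin copies, was at 968, 1313, 2141 and 928 CPM in control mice and at 758, 429, 718 and 510 CPM in LKO mice. Each LKO mouse was below each control mouse. This gave a log2 fold change of -1.14 (standard error 0.28, edgeR adjusted p = 0.999). *Serpina1b* was at 4265, 4804, 6000 and 4184 CPM in controls and at 3559, 3135, 4180 and 3876 CPM in LKO, without overlap by the margin between 4180 and 4184 CPM, a log2 fold change of -0.38 (standard error 0.16, edgeR adjusted p = 0.999). Groups that did not overlap were found for 1.97% of 14501 genes, and for these 2 of the 10. *Serpina1e* was at 10.8, 13.1, 21.1 and 8.64 CPM in controls and at 10.2, 6.90, 7.74 and 6.32 CPM in LKO, where 1 LKO mouse lay within the control range.

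*Serpina4-ps1* spread 30.6 times among control mice and differed 4.37-fold between genotypes. It was at 507, 518, 1100 and 35.9 CPM in controls and at 101, 144, 124 and 120 CPM in LKO. The fitted log2 fold change was -2.13 (standard error 0.68, edgeR adjusted p = 0.999). Control replicate 4, at 35.9 CPM, was below all LKO mice and the other 3 controls were above them. Without that library the log2 fold change was -2.53 and the gene was called (edgeR adjusted p = 0.0347). Without control replicate 3, the highest mouse, it was -1.53 (edgeR adjusted p = 1) and with a replicate block -1.60 (0.995). The LKO mice stayed within 1.41 times of each other.

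*Serpina7* was at 10.4, 7.68, 12.9 and 16.4 CPM in control mice and at 10.3, 22.1, 24.5 and 31.5 CPM in LKO mice, from 108 to 584 counts. The highest 3 values were LKO and the fourth LKO mouse lay inside the control range. Fitted as a log2 fold change, this was 0.91 (standard error 0.32, edgeR adjusted p = 0.999). *Serpina6* was at 458, 176, 138 and 531 CPM in controls and at 137, 331, 408 and 433 CPM in LKO. The groups overlapped, with 2 control mice above all LKO mice, and the fitted log2 fold change was 0.00 (standard error 0.46). *Serpina1a*, *Serpina1c*, *Serpina3k* and *Serpina3m* had log2 fold changes from -0.50 to -0.26, none past the test.

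The second comparison set the pools of each time after APAP against the 8 mice at 0 h, with the genotype as a covariate and 1 control and 1 LKO pool per time. At 12 h, 1 of the 10 genes rose and 2 fell, where 31.0% of all 13855 genes tested were called (16.7% higher, 14.3% lower). At 24 h, 1 rose and 1 fell, beside 13.9% and 11.7% of all genes. At 48 h, 1 rose and 2 fell, beside 9.89% and 6.52%. At 72 h, 1 rose, beside 11.0% of all genes higher and 5.77% lower. At 96 h, 1 rose, beside 0.332% higher and 0.130% lower. In either direction the percentages were 25.6%, 16.4%, 16.8% and 0.462% from 24 to 96 h. The gene that rose from 12 to 72 h was *Serpina3m*. *Serpina6* was the gene that fell from 12 to 48 h, and *Serpina7* both fell at 48 h and rose at 96 h. In whole liver, fewer cells of a type and less RNA per cell cannot be told apart.

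**Figure D3:**
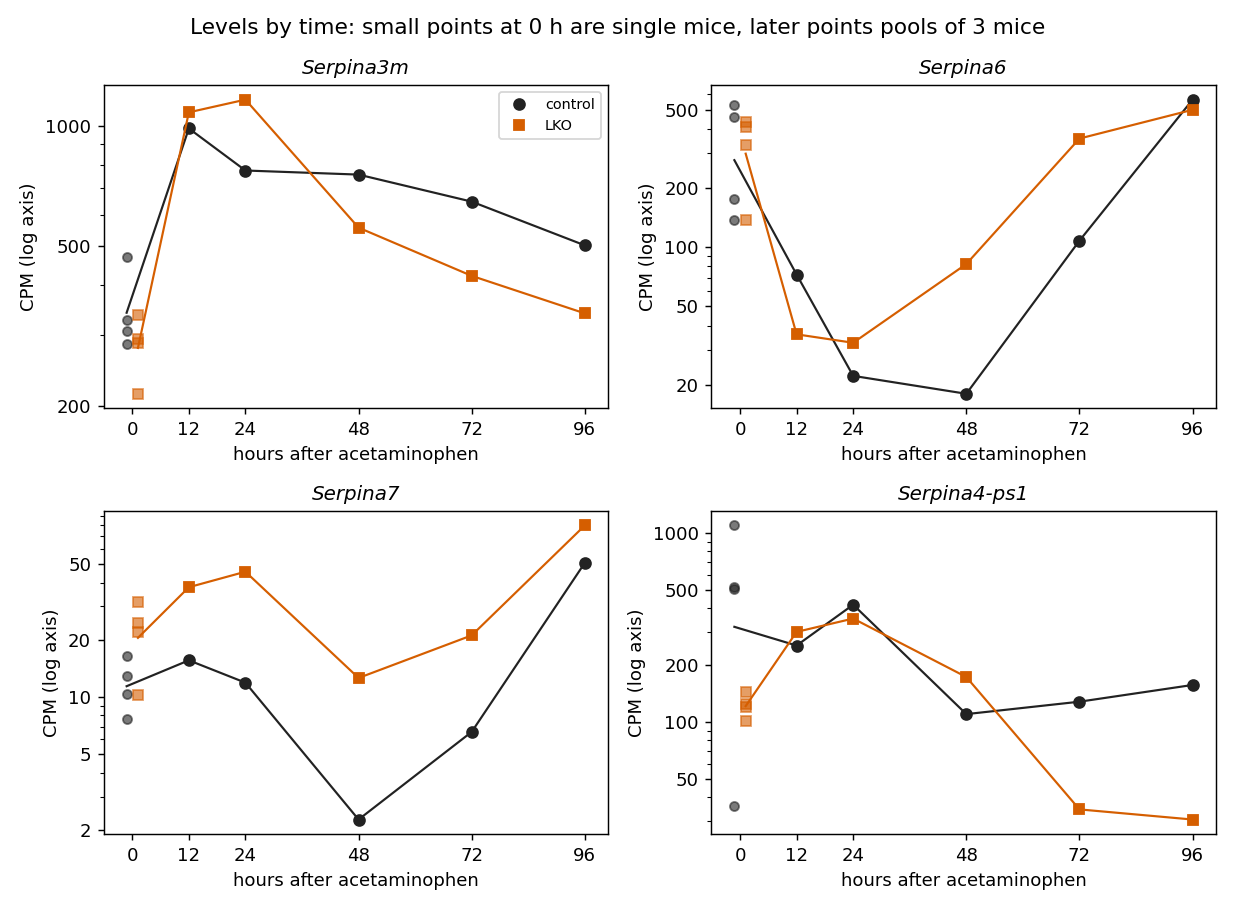
Serpina3m, Serpina6, Serpina7 and Serpina4-ps1 in CPM (log axis) against hours after APAP in control (black) and LKO (orange) livers; at 0 h points are single mice and lines start from their geometric mean, later points are pools of 3 mice. Serpina6 reaches 18.0 CPM in the control pool at 48 h and 563 CPM at 96 h, and Serpina7 of LKO pools lies above control pools at all 5 times.

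*Serpina3m*, a relative of human antichymotrypsin, was at 285 to 471 CPM in the 4 control mice and 214 to 336 CPM in the 4 LKO mice at 0 h. In control pools, from 12 to 96 h in order, it was at 986, 774, 756, 647 and 503 CPM, and in LKO pools at 1082, 1164, 557, 422 and 340 CPM. The 12 h, 24 h and 48 h pools of both genotypes were above all 8 mice at 0 h. Against 0 h the log2 fold change was 1.74 at 12 h (standard error 0.22, edgeR adjusted p = 2.99e-05) and 1.65 at 24 h (0.22, 9.68e-05). It was 1.05 at 48 h (0.22, 0.00438) and 0.75 at 72 h (0.23, 0.0296), and at 96 h it was 0.41 and was not called (0.417). The rise at 12 and 24 h held in each alternative run. At 48 h the call was lost without the control pool (0.93, edgeR adjusted p = 0.108). At 72 h it was lost without the control pool (0.52, 0.488) and without the LKO pool (0.95, 0.0536).

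*Serpina3k* had the highest level of uniquely mapped reads of the 10 genes and is a neighbour of *Serpina3m*, with which it shares 95 of the 100-base windows. It was not called at any time, with log2 fold changes from -0.34 to 0.07. Its control pools were at 10857, 9662, 11433, 10388 and 13619 CPM and its LKO pools at 11323, 10357, 11947, 7525 and 6853 CPM, and the 8 mice at 0 h covered 7242 to 16847 CPM. One pool, LKO at 96 h, was below that range.

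*Serpina6*, the carrier of corticosterone in plasma, fell most. Control pools in order of time were at 72.7, 22.2, 18.0, 108 and 563 CPM, and LKO pools were at 36.1, 32.7, 82.2, 357 and 500 CPM, against 137 to 531 CPM in the 8 mice at 0 h. All pools of 12, 24 and 48 h were below all of those mice. The log2 fold change was -2.52 at 12 h (standard error 0.67, edgeR adjusted p = 0.00826), -3.61 at 24 h (0.72, 0.00175) and -2.81 at 48 h (0.69, 0.0100). At 72 h it was -0.58 (0.58, 0.529) and at 96 h 0.71 (0.53, 0.542), neither called. At 72 h the control pool was below all 8 mice at 0 h while the LKO pool lay within their range. The 12 h call was lost without the LKO pool (-1.93, edgeR adjusted p = 0.110) and the 48 h call without the control pool (-2.06, 0.184). Leaving out the other pool gave -3.45 at 12 h (edgeR adjusted p = 0.0285) and -4.12 at 48 h (0.00909), so the size of the fall depended on the pool.

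*Serpina7*, the carrier of thyroid hormone, was lowest at 48 h and highest at 96 h in the pools of both genotypes, with each LKO pool above its control pool. Control pools were at 15.6, 11.9, 2.27, 6.56 and 50.8 CPM and LKO pools at 37.8, 45.6, 12.6, 21.1 and 79.9 CPM in the same order. No test of genotype by time was run, with 1 pool at each point. Control pools lay within the range of the 8 mice at 0 h (7.68 to 31.5 CPM) at 12 and 24 h, below it at 48 and 72 h and above it at 96 h. LKO pools were above that range at 12, 24 and 96 h and inside it at 48 and 72 h, so the fall called at 48 h took the control pool, not the LKO pool, below the mice at 0 h. The log2 fold change against 0 h was -1.45 at 48 h (standard error 0.41, edgeR adjusted p = 0.0238) and 2.00 at 96 h (0.33, 0.0125). At 12 h it was 0.59 (0.35, 0.207), at 24 h 0.56 (0.35, 0.249) and at 72 h -0.43 (0.38, 0.467). Without the control pool the 48 h value was -0.94 (edgeR adjusted p = 0.330) and without the LKO pool -2.26 (0.0176). At 96 h the call was lost without the control pool (1.61, 0.372) and without the LKO pool (2.31, 0.0583).

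The antitrypsin copies were called once. *Serpina1c* fell at 12 h (log2 fold change -0.89, standard error 0.26, edgeR adjusted p = 0.0135), with pools at 2391 CPM (control) and 1696 CPM (LKO) against 2673 to 4623 CPM in the 8 mice. The call was lost without the control pool (-0.98, edgeR adjusted p = 0.0852) and without the LKO pool (-0.81, 0.114), at folds close to the first. The 5 copies summed to 1 feature stood at -0.60 at 12 h (standard error 0.26, edgeR adjusted p = 0.0860) and was not called. Only reads unique to 1 copy enter this sum, so it still depends on which copy is expressed. *Serpina1a* was at -0.77 and *Serpina1b* at -0.43 at 12 h, and *Serpina1d* and *Serpina1e* at -0.06 and 0.39. From 24 to 96 h the copies ranged from -0.82 (*Serpina1d* at 96 h) to 0.45 (*Serpina1d* at 24 h), none called.

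**Figure D4:**
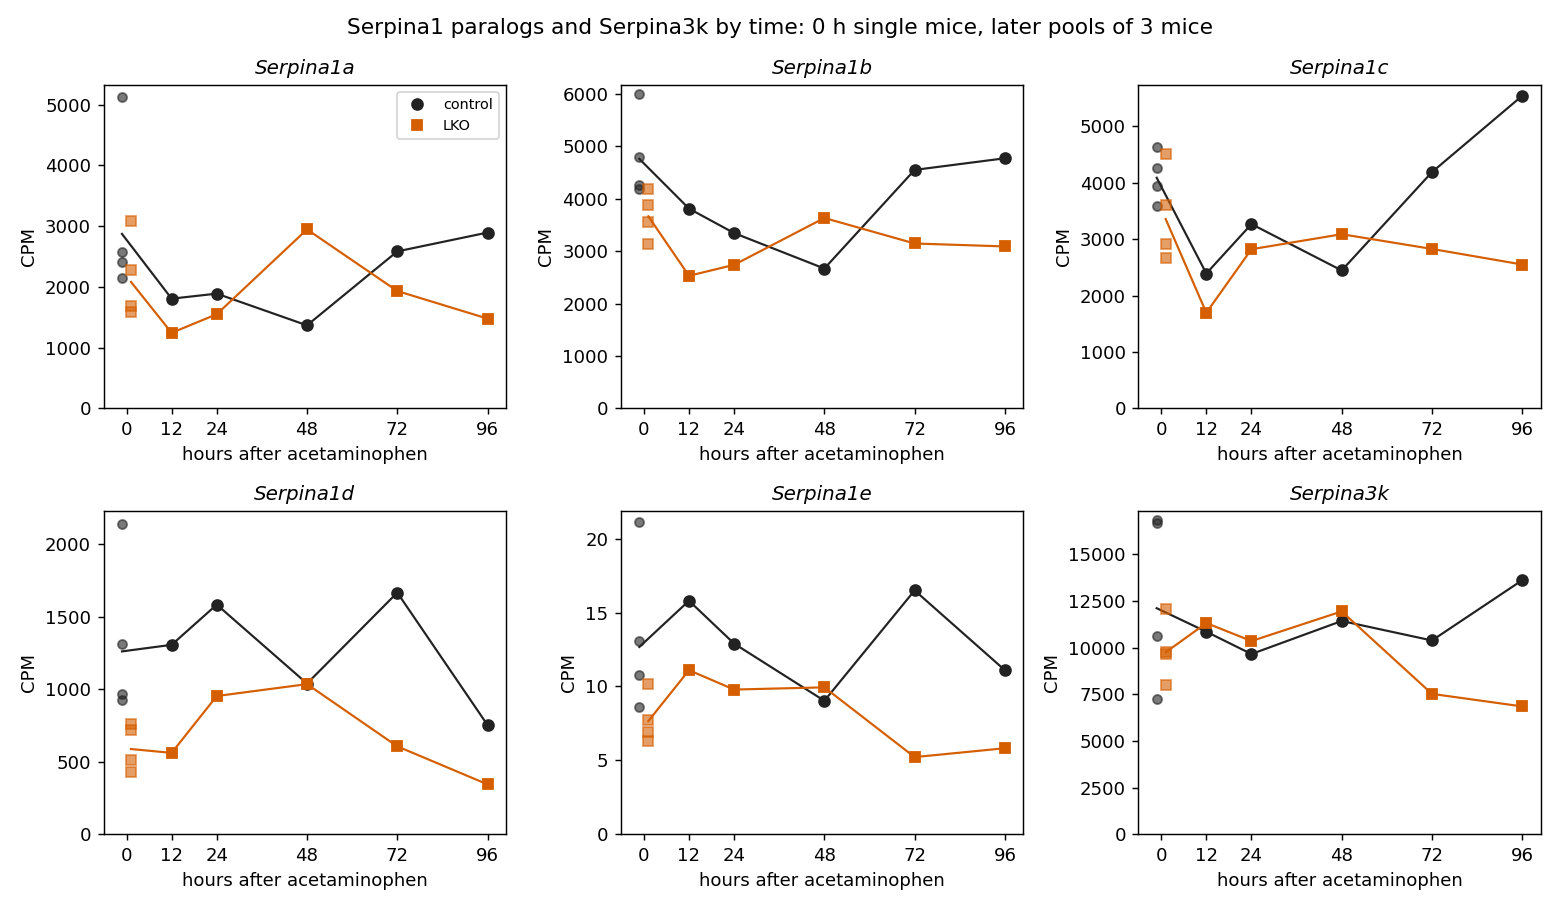
The 5 Serpina1 copies and Serpina3k in CPM (linear axes from 0) against hours after APAP in control (black) and LKO (orange) livers; 0 h points are single mice and lines start from their geometric mean, later points are pools of 3 mice. The LKO pool of Serpina1d lies at or below the control pool at each time, 1035 against 1039 CPM at 48 h and 606 against 1666 CPM at 72 h.

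*Serpina4-ps1* was at 254, 418, 110, 128 and 157 CPM in control pools and at 300, 353, 173, 34.4 and 30.4 CPM in LKO pools. The LKO pools of 72 and 96 h were the lowest of the 24 libraries. The log2 fold change was -1.98 at 72 h (standard error 0.86, edgeR adjusted p = 0.120) and -1.86 at 96 h (0.85, 0.302). Without control replicate 4 of 0 h, the value at 72 h was -2.15 and was called (edgeR adjusted p = 0.0350).

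The third comparison asked for a genotype difference shared by the 5 times after APAP, in LKO against control pools with the time as a block. *Serpina7* was higher in LKO and was the 1 gene of the 10 that was called, where 0.579% of 12782 genes were called (0.250% higher, 0.329% lower). LKO pools were 2.41, 3.80, 5.31, 3.18 and 1.57 times the control pools from 12 to 96 h in order. The log2 fold change was 1.56 (standard error 0.24, edgeR adjusted p = 0.0299), higher in 5 of 5 pairs of pools. All 5 pairs had the same direction for 16.1% of 14501 genes, and for *Serpina7* and *Serpina1d* among the 10. The call rested on most of the pools: leaving out the pair of 12, 24, 48 or 72 h gave log2 fold changes of 1.64, 1.48, 1.38 and 1.54 with edgeR adjusted p-values of 0.0742, 0.0994, 0.0795 and 0.0803. Without the time block it was 1.17 (edgeR adjusted p = 0.764). Leaving out the pair of 96 h kept the call (1.82, edgeR adjusted p = 0.00938). DESeq2 (1.57, adjusted p = 1.12e-07) and edgeR with no filter beyond 1 count (1.57, 0.000842) called *Serpina7* too.

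*Serpina1d* was lower in the LKO pool at each time, at 0.429, 0.602, 0.996, 0.364 and 0.457 times the control pool. At 48 h the pools were level, at 1035 and 1039 CPM. Its log2 fold change of -0.92 (standard error 0.22, edgeR adjusted p = 0.0850) was not called, while DESeq2 called it (adjusted p = 0.00107), as did edgeR with no filter on low counts (0.0224). *Serpina1e* stood at -0.67 (standard error 0.25, edgeR adjusted p = 0.203). *Serpina1a*, *Serpina1b* and *Serpina1c* stood at -0.24, -0.33 and -0.42, *Serpina3k* and *Serpina3m* at -0.25 and -0.19 and *Serpina4-ps1* at -0.71. *Serpina6* stood at 0.65 (standard error 0.41, edgeR adjusted p = 0.433). Its LKO pool was 4.54 times the control pool at 48 h and 3.30 times at 72 h, and 0.497 times at 12 h.

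**Figure D5:**
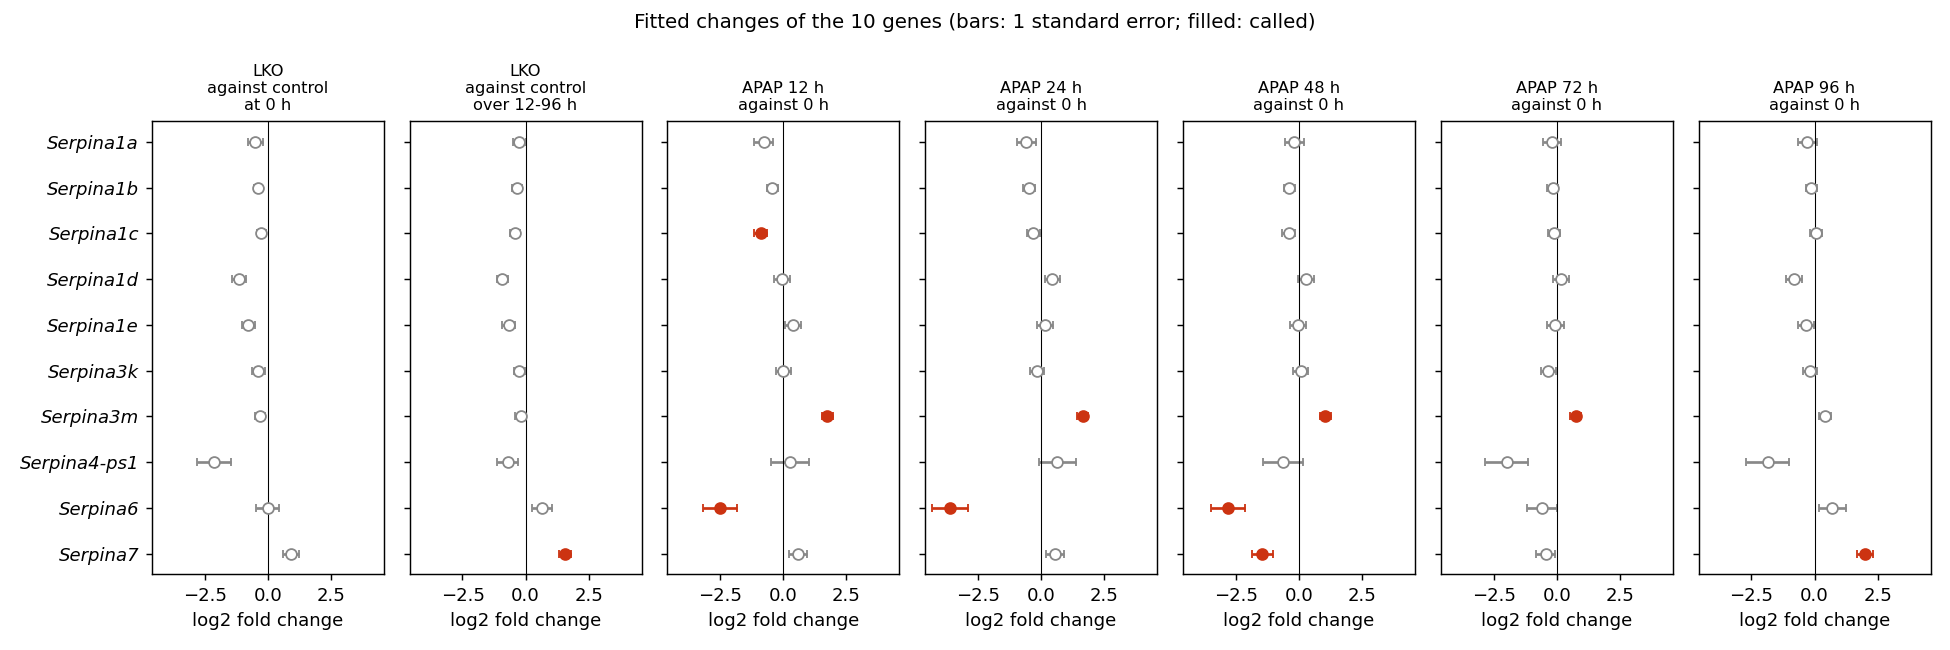
Log2 fold changes (horizontal axis) of the 10 genes in 7 comparisons, with bars of 1 standard error; filled points were called at an edgeR adjusted p under 0.05 and at least 1.5-fold. Serpina3m is filled from 12 to 72 h, Serpina6 from 12 to 48 h and Serpina7 at 48 and 96 h and in LKO against control over 12-96 h.

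In the HKO cohort the genes were read without a test. *Serpina7* had 17, 13 and 15 counts in AAV null controls (1.06, 0.900 and 0.967 CPM) and 76, 119 and 60 counts in HKO mice (4.62, 7.62 and 3.97 CPM). Each HKO mouse was above each control, and the fitted log2 fold change was 2.47. Groups that did not overlap were found for 16.9% of 14501 genes, and 0.960% of 12397 genes were called in this contrast (0.419% higher, 0.540% lower). *Serpina6* was at 105, 144 and 149 CPM in AAV null controls and 66.0, 114 and 94.9 CPM in HKO, a log2 fold change of -0.52. *Serpina4-ps1* was at 150, 139 and 42.3 CPM and at 113, 210 and 132 CPM, a log2 fold change of 0.47. The remaining 7 genes lay between -0.35 (*Serpina1d*) and 0.17 (*Serpina3m*), and all of these groups overlapped.

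Controls of the 2 cohorts were also read side by side. For *Serpina7*, AAV null controls stood at 0.976 ± 0.0809 CPM (SD, n = 3) and control mice of the LKO cohort at 11.8 ± 3.70 CPM (SD, n = 4), a fitted log2 fold change of -3.59. Groups that did not overlap were found for 24.6% of 14501 genes between these controls, and for *Serpina1a* and *Serpina1b* among the 9 genes other than *Serpina7*. HKO mice had 5.41 ± 1.94 CPM of *Serpina7* (SD, n = 3), above AAV null controls and below the controls of the LKO cohort. The lowest of the latter was at 7.68 CPM, against 7.62 CPM in the highest HKO mouse. *Serpina7* was left untested here because the choice of genes had used the AAV null controls. None of the other 9 genes was called, where 8.21% of 12431 genes were called (4.54% higher, 3.67% lower), and 4 of the 9 had an unadjusted p under 0.05, beside 29.5% of all genes. DESeq2 called none of the 9 either. *Serpina4-ps1* stood at -2.27 (standard error 0.86, edgeR adjusted p = 0.113) and *Serpina6* at -1.30 (0.44, 0.0877). Without control replicate 4 *Serpina4-ps1* was called (-2.67, edgeR adjusted p = 0.00779), and without control replicate 3 *Serpina6* was called (-1.56, 0.0248). A replicate block called *Serpina4-ps1* too (-2.70, 0.0315), but the block run also left out control replicate 4 and is no separate check of that mouse. Without control replicate 3 *Serpina4-ps1* was at -1.68 (edgeR adjusted p = 0.194), and with a replicate block *Serpina6* was at -0.74 (0.279). Virus, breeding and cohort cannot be told apart in these values.

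Across the 24 libraries, log2 CPM of *Serpina1a* and *Serpina1b* had a Pearson r of 0.91 and *Serpina1d* and *Serpina1e* one of 0.85, while *Serpina3m* and *Serpina6* had an r of -0.75. The points share time points and depth, so these are descriptions. They include the HKO and AAV null livers whose *Serpina7* levels entered the choice of genes, so likeness to *Serpina7* draws partly on those values. The genes most like *Serpina6* were *Inmt*, *Nipsnap1* and *Lipc* (r = 0.95 each), *Pipox* (0.94) and *Aldh4a1* (0.92). Among those most like *Serpina7* were *Emg1* (0.80), *Cldn2*, *Aldh1a7* and *Stra6l* (0.77 each). For *Serpina4-ps1* they were *Ss18* (0.82), *Xbp1* (0.76) and *Hspa5* (0.73), both genes of the unfolded protein response, with *Slc30a5* (0.75) and *Med27* (0.72).

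Other genes of the same pathways were counted from lists, to be read against all genes, of which 16.7% rose and 14.3% fell at 12 h, 13.9% and 11.7% at 24 h, 9.89% and 6.52% at 48 h and 11.0% and 5.77% at 72 h. Of 11 other clade A serpins tested, 2 rose at 12 h, *Serpina3f* (log2 fold change 2.05, edgeR adjusted p = 0.000712) and *Serpina3n* (1.82, 5.17e-05), and none fell. At 24 h 1 rose and at 48 h 1 rose, *Serpina5*, and at 72 and 96 h none was called. Of 10 serpins of other clades, not all of them plasma proteins, 1 rose and 4 fell at both 12 and 24 h and 1 rose and 2 fell at 48 h. At 72 h 1 rose and 1 fell, and none was called at 96 h. Of 4 target proteases, 1 fell at 12 h, 1 rose and 1 fell at 24 h, 1 rose and 2 fell at 48 h and 1 rose at 72 h. The 1 that rose was *Prtn3*, a neutrophil protease, at a log2 fold change of 5.47 at 24 h (edgeR adjusted p = 0.000318). *Prtn3* had few counts at 0 h and did not pass the low-count filter among those mice, so its rise is a description. Of 20 acute-phase genes, which the liver raises in inflammation, 8 rose and 2 fell at 12 h and 6 rose at both 24 and 48 h, 4 rose at 72 h and none was called at 96 h. Of 14 genes of thyroid and glucocorticoid hormone transport and response, 1 rose and 5 fell at 12 h and 6 fell at 24 h, while later 1 (48 h), 2 (72 h) and 1 (96 h) fell. *Dio1*, which activates thyroid hormone, fell by 1.85 on the log2 scale at 12 h (edgeR adjusted p = 0.0104) and by 2.01 at 24 h (0.00857). Of 12 liver transcription factors, 2 rose at 12 h, 1 rose and 3 fell at 24 h, 3 fell at 48 h and 2 at 72 h, with *Hnf4a* among those that fell (-0.67 at 24 h, edgeR adjusted p = 0.0407, and -0.88 at 48 h, 0.0181). None of 4 target proteases, 14 hormone genes, 12 transcription factors, 20 acute-phase genes or 11 other clade A serpins was called in LKO against control over 12-96 h by edgeR, whose calls were 0.579% of all genes, so counts of 0 say little about these lists. At an unadjusted p under 0.05 edgeR had 17.9% of all genes, and DESeq2 called 4.83% of its genes. In that comparison 6 of 19 genes of sex-patterned liver expression were higher and 1 was lower, beside 0.250% and 0.329% of all genes. Against 0 h, of 20 such genes tested, 1 rose and 4 fell at 12 h, 8 fell at 24 h, 1 rose and 7 fell at 48 h, 1 rose and 4 fell at 72 h and 1 rose at 96 h.

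Markers of other cells moved over the same times. Of 5 neutrophil markers 3 rose at both 12 and 24 h, 2 at 48 h and 1 at 72 h. Only *Csf3r* and *S100a9* of these passed the low-count filter among the mice at 0 h, so rises of the others, *Retnlg* and *S100a8* among them, are descriptions. The sum of the 5 markers was 2.46 to 12.0 CPM in control mice at 0 h and 8.69 to 31.6 CPM in control pools. It was 2.48 to 8.44 CPM in LKO mice and 2.37 to 29.7 CPM in LKO pools. Of 8 Kupffer cell and macrophage markers, 1 rose and 1 fell at 12 h, 3 rose and 3 fell at 24 h, 3 rose at 48 h and 4 at 72 h, and 1 rose at 96 h. Their sum was 150 to 245 CPM in control mice at 0 h and 126 to 420 CPM in control pools, and 167 to 394 CPM in LKO mice and 135 to 559 CPM in LKO pools. Of 6 stellate cell markers, 2 fell at 12 h, 2 rose and 1 fell at 24 h, 2 rose at 48 h and 5 rose at 72 h, when *Acta2* had a log2 fold change of 5.08 (edgeR adjusted p = 1.18e-05) and *Col1a1* one of 4.50 (2.92e-09). Their sum went from 145 to 227 CPM in control mice to 232 to 596 CPM in control pools, and from 115 to 220 CPM in LKO mice to 156 to 515 CPM in LKO pools. Of 6 sinusoidal endothelial markers, 1 rose and 2 fell at 12 and 48 h, 1 rose and 3 fell at 24 h and 2 fell at 72 h. Of 5 cholangiocyte markers, 1 rose at 12 and 24 h, 2 rose and 1 fell at 48 h and 1 fell at 72 h, and of 4 lymphocyte markers none was called. Of 11 hepatocyte markers, 3 fell at 12 h, 1 rose and 5 fell at 24 h, 5 fell at 48 h and 2 fell at 72 h, times at which *Serpina6* was called lower up to 48 h, with sums of 94878 to 135285 CPM in control pools and 76118 to 108563 CPM in LKO pools. The part of these changes in the serpin levels was not tested.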

How the data were processed

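Whole-liver RNA from 14 single mice at 0 h and 10 pools of 3 mice was sequenced, and groups were taken from the labels. Trimming was by Trimmomatic and alignment to mm10 by STAR, from which the authors deposited raw counts of uniquely mapped reads per gene, without normalization. The annotation version is not given in the sources used here. The unstranded column of the deposited counts was read, without its 4 entries for reads given to no gene (per library 4.69% to 8.06% multimapping and 7.29% to 14.7% on no feature).

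Tests were run with edgeR 4.0.16 under R 4.3.3 (filterByExpr, TMM, quasi-likelihood test) and, as an alternative, DESeq2 1.42.0. Calls needed a Benjamini-Hochberg adjusted p under 0.05 over all genes tested and at least 1.5-fold. All p-values are two-sided. CPM used TMM factors over the 24 libraries, with a prior count of 2 in correlations. In the fit of time after APAP the spread mixes single mice with pools, and the 2 pools of a time come from different genotypes.

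The genes, lists and tests were chosen with earlier results of these data known. The text names all 10 serpins, up to 4 genes of a list by fold change among those called, and for 3 serpins the 5 genes with the highest Pearson r, of which 1 is not reported here. Alternatives were DESeq2, RLE and library-size scaling, 2 other filters, a stranded column, summed *Serpina1* copies, a replicate block, no time block and leaving out each library. Scripts were tested on simulated data. Sequences came from GENCODE vM21 and RefSeq GRCm38.p6.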

Additional observations from a re-analysis of the deposited data

Results flagged for a closer look

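*Serpina1a* in control replicate 3 at 0 h stood apart from the other 3 control mice, at 5130 CPM against 2149 to 2571 CPM. Of 20 groups of 4 mice read in this way, 1 was marked, and chance marks about 1 group in 20. The same library had the fewest reads on genes (12665686).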

How the results depend on the processing

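The number of the 10 serpins called changed by more than 1.5 times as follows, and the cause was not tested. LKO against control mice at 0 h had 0 genes called and 0 to 1 with a mouse left out (1 without control replicate 4, *Serpina4-ps1*). Over 12-96 h, 1 gene was called, 2 with DESeq2 or no filter beyond 1 count, 0 without the time block and 0 to 1 with a time left out. Against 0 h, leaving out a library gave 1 to 3 genes at 12 h, 0 to 4 at 48 h, 0 to 2 at 72 h and 0 to 1 at 96 h, and 2 at 24 h throughout. AAV null controls against controls of the LKO cohort had 0 genes called and 0 to 1 with a mouse left out. With the replicate block, which there also left out control replicate 4, 1 was called. No serpin with an unadjusted p under 0.05 in a comparison changed the sign of its fold change in any alternative run. Over all genes, HKO against AAV null controls had 119 called, 54 to 297 with a mouse left out and 263 with the replicate block. Replicate numbers did not pair the mice (correlations of same-numbered mice from -0.31 to 0.18 in the LKO cohort and from -0.04 to 0.12 in the HKO cohort); the replicate block left LKO against control at 0 h at 0. Pools, 1 per genotype and time, limit what later times can show.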
